A study of Mus musculus with 9 samples.

Results

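Fatty acid desaturases place double bonds into fatty acyl chains and elongases lengthen them. The set described here holds 9 genes, the stearoyl-CoA desaturases Scd1 and Scd2, the fatty acid desaturases Fads1, Fads2 and Fads3, and the elongases Elovl1, Elovl5, Elovl6 and Elovl7. They were chosen by name, with earlier results of these data known. The Ensembl identifiers of the table were matched to mouse symbols with the GENCODE M21 annotation. In the table of 12003 genes, 8 of the 9 were found. Elovl7 is not in the table and is not analysed here.

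The study sequenced poly(A) RNA of alveolar macrophages, phagocytes that live in the air spaces of the lung. Cells came from bronchoalveolar lavage, pooled from 5 to 7 mice, and were purified with beads against CD11c, a surface integrin of these macrophages and of dendritic cells. Vhl knockouts are labelled Vhl(flox/flox) / CD11c (cre/+) and lose the ubiquitin ligase subunit VHL where Cre, driven by the CD11c promoter, is active. Floxed controls are labelled Vhl(flox/flox) / CD11c (+/+) and carry no Cre. Cre controls are labelled Vhl(+/+) / CD11c (cre/+) and carry Cre with intact Vhl alleles. All mice were on the C57BL/6 background, 8 to 12 weeks old, sex-matched and untreated, with 3 pools per genotype. No label ties a pool to a litter or a day, so p-values measure the spread between pools.

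Elongation by Elovl6 turns palmitate into stearate, and Scd1 and Scd2 turn stearate into oleate, a main fatty acid of membranes and lipid droplets. Dietary linoleic and alpha-linolenic acid follow another route, in which Fads2, an elongase such as Elovl5, and Fads1 produce arachidonic and eicosapentaenoic acid, the precursors of prostaglandins, leukotrienes and related mediators. Both kinds of desaturase take electrons from cytochrome b5 and consume molecular oxygen. Alveolar macrophages take up and break down surfactant, a lipid film rich in saturated phosphatidylcholine. VHL marks the hypoxia-inducible factors for destruction when oxygen is present, which is why its loss is used as a model of a constant hypoxia signal.

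The unit throughout is the normalized read, a CPM value corrected by a factor for each library and not for gene length. Over the 12003 listed genes the libraries held 18201116 to 25861174 reads, and 1 read equals 0.0400 to 0.0565 normalized reads. Reads outside these genes are not in this count. Log2 fold changes were taken on log2(normalized reads + 1) with limma over all 9 libraries, which understates changes of low genes, and a gene was called at an adjusted p under 0.05 over all 12003 genes. Vhl had 2.02, 2.14 and 2.52 normalized reads in Vhl knockout libraries, against 21.0, 14.9 and 18.4 in floxed control and 24.0, 21.9 and 25.3 in Cre control libraries, so every Vhl knockout library was below every control library. All 14 markers of alveolar macrophages on the list used were measured, and their summed level was 35285.7 to 48401.9 normalized reads in Vhl knockouts and 25309.8 to 30324.7 in the controls. Of these 14 markers 5 were called higher in Vhl knockouts than in both controls, 4 lower and 5 did not pass. Over all genes 19.7% were called higher and 20.2% lower against both controls. Chil3, a secreted chitinase-like protein, made up most of the sum, at 30308 ± 6785 normalized reads in Vhl knockouts and 17872 ± 1538 in the controls (SD, n = 3 and 6). The surface receptors Siglecf (334 ± 8.94 in Vhl knockouts, against 502 ± 58.7 in the controls) and Mertk (243 ± 9.89, against 376 ± 28.0) and the keratin Krt79 (187 ± 21.5, against 399.8 ± 39.0) were lower.

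In Vhl knockout macrophages, against both controls, the stearoyl-CoA desaturases rose, and Fads1, Fads2, Fads3, Elovl1 and Elovl6 fell. Against Cre controls alone Fads3 did not pass, and the Fads2 call did not hold under every alternative. Of the 8 measured genes 7 were called, 2 higher (Scd1 and Scd2) and 5 lower (Fads1, Fads2, Fads3, Elovl1 and Elovl6), with a median log2 fold change of -0.55. Fads2 is in the table only through the controls, where it is higher, since its Vhl knockout values lie under the 0.962 normalized reads that each listed gene reaches in at least 3 libraries. Of all genes tested, 39.8% were called in this comparison, 19.7% higher and 20.2% lower, and their median was -0.00. For 7 of the 8 genes the libraries of Vhl knockouts and of the controls did not overlap, which held for 37.7% of all genes. Against floxed controls alone 7 of 8 were called, 2 higher and 5 lower, where 34.3% of all genes were called, 17.5% higher and 16.8% lower. Against Cre controls alone 6 of 8 were called, 2 higher and 4 lower, where 34.0% of all genes were called, 16.3% higher and 17.7% lower.

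**Figure D1:**
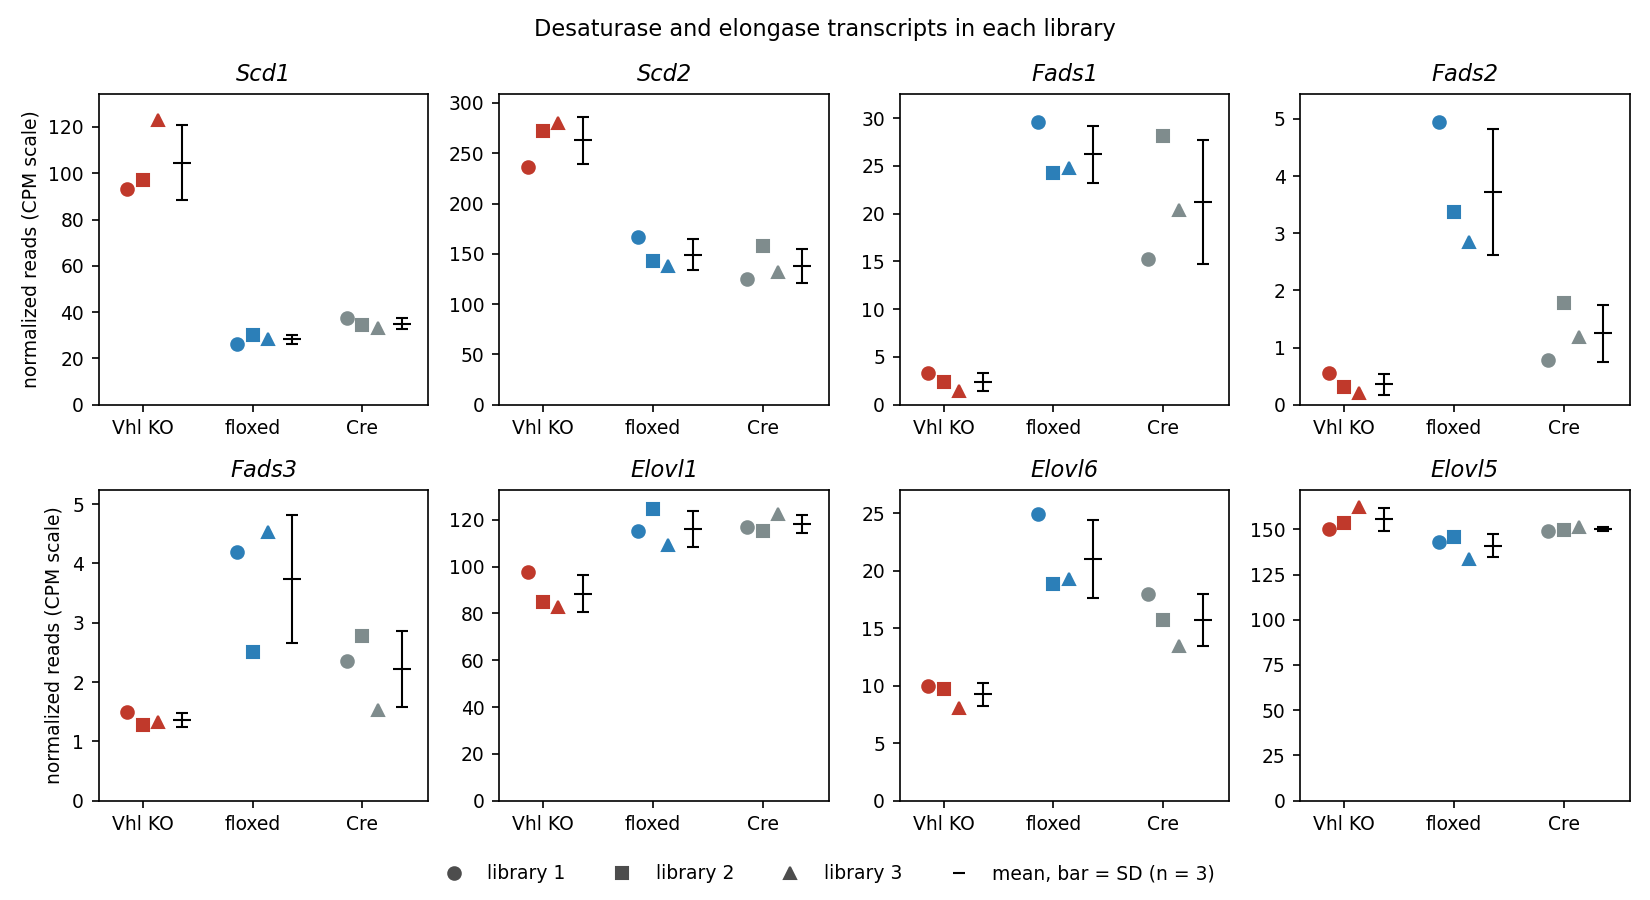
Normalized reads (CPM scale, y axis from 0, a separate scale for each gene) of the 8 measured genes in each library, for Vhl knockout (red), floxed control (blue) and Cre control (grey). Symbols give the library number, and the bar is the mean with its SD (n = 3). Scd1 and Scd2 lie above all control libraries in Vhl knockouts, and Fads1, Fads2, Fads3, Elovl1 and Elovl6 lie below them. Elovl5 overlaps the Cre controls and lies above the floxed controls.

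Scd1, the stearoyl-CoA desaturase that makes oleate and palmitoleate, had 93.3, 97.0 and 123 normalized reads in Vhl knockout libraries, against 26.4, 30.3 and 28.2 in floxed control and 37.6, 34.5 and 33.0 in Cre control libraries. Every Vhl knockout library stood above every control library. The mean was 105 ± 16.3 in Vhl knockouts, 28.3 ± 1.97 in floxed controls and 35.0 ± 2.37 in Cre controls (SD, n = 3 each), 3.30 times the mean of both controls. On the log2 scale the difference from both controls was 1.69, with an SE of 0.0917 and a limma adjusted p of 4.87e-07. It was 1.84 against floxed controls and 1.54 against Cre controls, both called.

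Scd2, a second stearoyl-CoA desaturase also encoded on chromosome 19, was the more abundant of the pair. It had 236, 272 and 280.2 normalized reads in Vhl knockout libraries, against 167, 142 and 138 in floxed control and 125, 157 and 131 in Cre control libraries. The lowest Vhl knockout library again exceeded the highest control library. Mean levels were 263 ± 23.6 in Vhl knockouts, 149 ± 15.6 in floxed controls and 138 ± 17.3 in Cre controls (SD, n = 3 each), a ratio of 1.83 to both controls. In limma this gave a log2 fold change of 0.87 (adjusted p = 5.58e-05, SE 0.0925), with 0.82 against floxed and 0.93 against Cre controls.

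The confidence intervals of the 2 changes lay apart, from 1.49 to 1.89 for Scd1 and from 0.67 to 1.08 for Scd2 (95%, log2), and the difference between the genes was not tested. Scd1 made up 26.3% to 30.5% of the summed reads of the pair in Vhl knockouts, against 13.7% to 17.5% in floxed and 18.0% to 23.2% in Cre controls. These ranges did not overlap. The sum of both genes was 367 ± 37.1 normalized reads in Vhl knockouts, 177 ± 14.1 in floxed controls and 173 ± 16.5 in Cre controls (SD, n = 3 each). Scd2 was the larger part of stearoyl-CoA desaturase reads in every library.

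The coding sequences of Scd1 and Scd2 are alike, and reads from a shared stretch cannot be given to 1 of them with certainty. Of the 61-base windows in their transcripts, the read length used, 3.62% for Scd1 and 2.62% for Scd2 also occur in other annotated genes, among them Scd3 and Scd4. The longest run of identical bases between the pair is shown because reads within it fit both genes; it spans 147 bases within the coding sequence, bases 823 to 969 of the longest Scd1 transcript and 1246 to 1392 of the longest Scd2 transcript (GENCODE M21, GRCm38), all bases shared.
Scd1 and Scd2 shared run: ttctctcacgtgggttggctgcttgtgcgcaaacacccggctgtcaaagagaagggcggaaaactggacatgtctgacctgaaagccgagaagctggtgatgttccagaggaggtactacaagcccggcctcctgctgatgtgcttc
How the authors' counting divided these reads cannot be told from the table. For the 5 members Fads1, Fads2, Fads3, Elovl1 and Elovl5 no window occurred in another gene.

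Fads1, the desaturase that makes arachidonic acid in the last step of its synthesis, had the largest log2 fold change in size of the 8 genes. It had 3.30, 2.40 and 1.48 normalized reads in Vhl knockout libraries, against 29.6, 24.3 and 24.8 in floxed control and 15.2, 28.1 and 20.4 in Cre control libraries. No Vhl knockout library came near a control library, and the Cre control libraries spread more widely than the floxed ones. The mean was 2.39 ± 0.912 in Vhl knockouts, 26.2 ± 2.96 in floxed controls and 21.3 ± 6.50 in Cre controls (SD, n = 3 each), so that Vhl knockouts held 10.1% of the mean of both controls. Fads1 thus had a log2 fold change of -2.87 (adjusted p = 3.21e-06 by limma, SE 0.202), with -3.03 against floxed and -2.71 against Cre controls.

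Fads2, which performs the first desaturation of linoleic and alpha-linolenic acid, was low in all libraries. It had 0.558, 0.306 and 0.200 normalized reads in Vhl knockout libraries, which are 13, 6 and 5 reads, against 4.95, 3.38 and 2.84 in floxed control and 0.787, 1.78 and 1.19 in Cre control libraries. All 3 Vhl knockout values lie under the 0.962 at which a gene entered the table. The 3 genotypes formed separate ranges, with Cre controls between Vhl knockouts and floxed controls. Against both controls, limma gave a log2 fold change of -1.25 (adjusted p = 0.000616, SE 0.192), and against floxed controls one of -1.78 (adjusted p = 0.000215). Against Cre controls it was -0.72 (adjusted p = 0.0313), a call that did not hold without Vhl knockout 2 (0.0832), Vhl knockout 3 (0.102), Cre control 2 (0.116) or Cre control 3 (0.0764), nor with a pseudocount of 5 (0.103). Over all alternatives its adjusted p ranged from 0.00241 to 0.116. The size of the Fads2 change depended on the scale, and over the alternatives its log2 fold change against both controls ran from -2.60 with DESeq2 to -0.46 with a pseudocount of 5.

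Fads3, a relative that desaturates sphingoid bases, had 1.50, 1.28 and 1.32 normalized reads in Vhl knockout libraries, against 4.19, 2.51 and 4.52 in floxed control and 2.36, 2.77 and 1.53 in Cre control libraries. The Vhl knockouts lay lowest, but Cre control 3 was close to them. Its log2 fold change against both controls was -0.70 (adjusted p = 0.0112 by limma, SE 0.179) and against floxed controls -0.98 (adjusted p = 0.00505). The value against both controls ran from -1.08 with DESeq2 to -0.31 with a pseudocount of 5 over the alternatives. Against Cre controls it was -0.43 (95% confidence interval -0.89 to 0.04, adjusted p = 0.143), which did not pass.

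Fads3, Fads2 and Fads1 lie in this order on chromosome 19 (GRCm38), at chr19:10041569-10060110, chr19:10062765-10101746 and chr19:10182888-10196877. Fads2 is on the minus strand and its neighbours are on the plus strand. The 3 genes together had 4.11 ± 1.19 normalized reads in Vhl knockouts, 33.7 ± 4.51 in floxed controls and 24.7 ± 7.29 in Cre controls (SD, n = 3 each). Summed Scd1 and Scd2 reads were 61.4 to 135 times the summed Fads reads in Vhl knockouts, 4.98 to 5.73 times in floxed controls and 5.87 to 8.82 times in Cre controls. The stearoyl-CoA desaturases outnumbered the Fads genes in every library, and by a far wider margin in Vhl knockouts.

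Among the elongases, Elovl6, which extends palmitate to stearate, had 9.95, 9.70 and 8.08 normalized reads in Vhl knockout libraries, against 24.95, 18.9 and 19.3 in floxed control and 18.0, 15.7 and 13.5 in Cre control libraries. Vhl knockouts lay below all controls, and Cre controls lay below floxed controls. The mean was 9.24 ± 1.02 in Vhl knockouts, 21.1 ± 3.38 in floxed controls and 15.7 ± 2.26 in Cre controls (SD, n = 3 each). Elovl6 had a log2 fold change of -0.90 (adjusted p = 0.000238 by limma, SE 0.119), with -1.10 against floxed and -0.70 against Cre controls, both called. Of the 61-base windows of its transcripts 3.13% occur in other genes.

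Elovl1, an elongase of saturated and monounsaturated chains that builds very long fatty acids, had 97.8, 85.0 and 82.8 normalized reads in Vhl knockout libraries, against 115, 124 and 109 in floxed control and 117, 115 and 122 in Cre control libraries. The groups did not overlap, although the difference was small, with 75.5% of the control mean left in Vhl knockouts. Limma gave a log2 fold change of -0.40 (adjusted p = 0.000848, SE 0.0653). The last 53 bases of Elovl1 (chr4:118432901-118432953, GRCm38) overlap the end of Cdc20, a cell cycle gene on the opposite strand, and whether counting used the strand is unknown here. Cdc20 was also lower, at 9.26 ± 1.44 normalized reads in Vhl knockouts and 17.1 ± 2.91 in the controls (SD, n = 3 and 6), and its part in the Elovl1 value was not tested.

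Elovl5, which elongates polyunsaturated fatty acids between the Fads2 and Fads1 steps, was the 1 measured gene with no call. It had 150.2, 154 and 162 normalized reads in Vhl knockout libraries, against 143, 146 and 134 in floxed control and 149, 149.5 and 151 in Cre control libraries. The Vhl knockout and Cre control libraries overlapped, while every Vhl knockout library lay above every floxed control library. The log2 fold change against both controls was 0.10 (95% confidence interval -0.01 to 0.20, limma adjusted p = 0.140), and it was not called against either control alone. Elovl6 made up 3.65% ± 0.400 of the summed reads of the 3 elongases in Vhl knockouts, 7.57% ± 1.16 in floxed controls and 5.54% ± 0.819 in Cre controls (SD, n = 3 each).

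**Figure D2:**
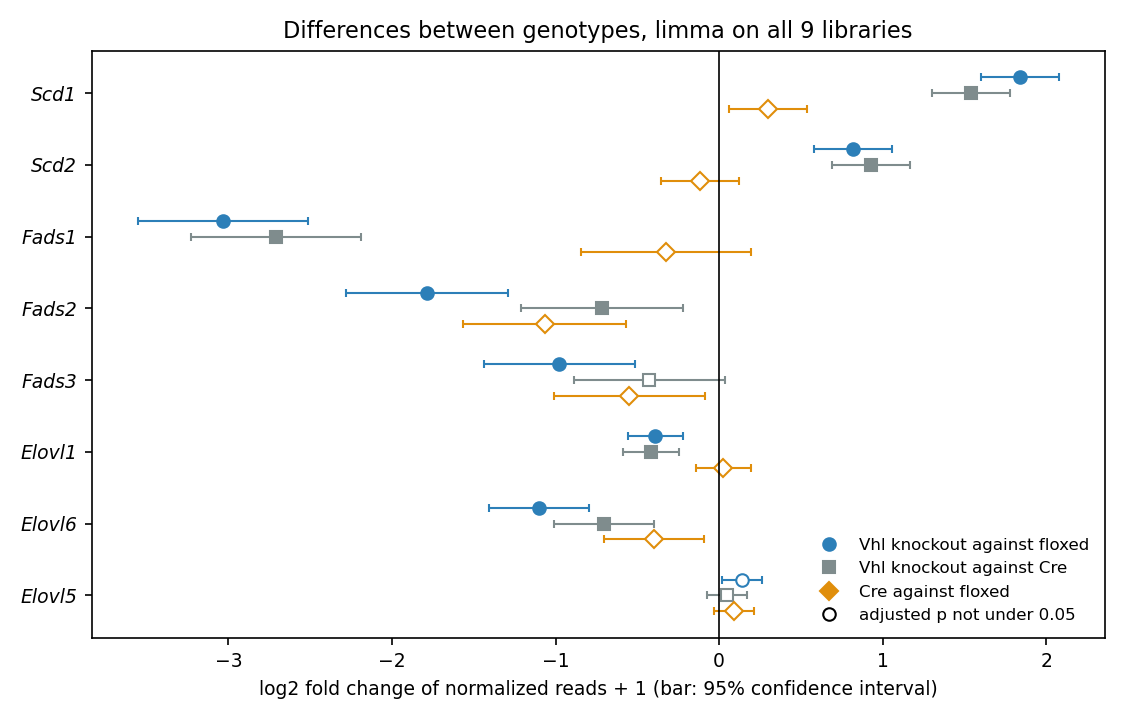
Log2 fold change of normalized reads + 1 (x axis) for each of the 8 genes (y axis), with 95% confidence intervals from limma on all 9 libraries, for Vhl knockout against floxed control (blue circles), Vhl knockout against Cre control (grey squares) and Cre control against floxed control (orange diamonds). Filled symbols have an adjusted p under 0.05; the intervals of Scd1 and Scd2 lie right of 0 in both knockout comparisons and those of Fads1 lie left of -2.

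The RefSeq promoter table used here (GRCm38.p6) has entries for 5 of the 8 genes and none for Scd1, Scd2 and Fads1. The promoters of 3 are shown, Fads2, which fell to 9.53% of the floxed control mean, Elovl6, which fell to 43.9% of it, and Elovl5, which was not called. Against Cre controls the falls were smaller. Mean Fads2 was 0.355 normalized reads in Vhl knockouts, 1.25 in Cre and 3.72 in floxed controls, and mean Elovl6 was 9.24, 15.7 and 21.1. Each window runs from 250 bases before to 50 after the RefSeq start, 5′ to 3′ on the gene's strand. For Fads2 the RefSeq and GENCODE annotations differ. Its GENCODE gene, on the minus strand, begins at 10101746, so most of the Fads2 window lies inside that gene. Capitals mark matches, on either strand, to the motifs CCAAT, the box named for these letters, ACGTG and GCGTG, both forms of the hypoxia response element core, AGGTCA, a core bound by nuclear receptors, and GGGCGG, the GC box.
Fads2 (chr19:10101454-10101753, minus strand): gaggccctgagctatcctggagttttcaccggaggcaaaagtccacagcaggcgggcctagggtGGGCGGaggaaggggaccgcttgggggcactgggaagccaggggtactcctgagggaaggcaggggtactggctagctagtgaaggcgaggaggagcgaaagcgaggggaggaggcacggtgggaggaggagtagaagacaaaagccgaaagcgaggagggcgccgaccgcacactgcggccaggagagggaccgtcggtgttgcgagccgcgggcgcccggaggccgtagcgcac
Elovl6 (chr3:129532136-129532435, plus strand): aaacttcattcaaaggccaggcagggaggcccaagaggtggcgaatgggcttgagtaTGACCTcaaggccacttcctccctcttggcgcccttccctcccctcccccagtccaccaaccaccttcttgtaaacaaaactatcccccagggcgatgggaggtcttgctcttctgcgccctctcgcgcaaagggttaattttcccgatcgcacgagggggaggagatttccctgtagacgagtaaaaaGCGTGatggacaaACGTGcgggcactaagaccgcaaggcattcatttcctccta
Elovl5 (chr9:77917115-77917414, plus strand): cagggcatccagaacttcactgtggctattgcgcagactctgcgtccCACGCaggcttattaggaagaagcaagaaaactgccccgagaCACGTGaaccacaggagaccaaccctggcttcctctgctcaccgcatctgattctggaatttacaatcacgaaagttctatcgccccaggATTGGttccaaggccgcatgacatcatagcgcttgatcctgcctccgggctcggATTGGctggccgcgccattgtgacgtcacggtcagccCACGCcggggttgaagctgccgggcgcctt

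The Fads2 window held 1 match, a GC box 186 bases before the RefSeq start and inside the GENCODE gene. The Elovl6 window held a GCGTG match 4 bases before the start, an ACGTG match 9 bases after it and an AGGTCA match on the minus strand 193 bases before it. The Elovl5 window held matches to both forms of the hypoxia response element core, among them CACGTG, which reads as ACGTG on either strand, and a pair of CCAAT boxes on the minus strand. TCACCCCAC, a core of the sterol regulatory element, and TATAAA, the TATA box, were searched too and matched in none of the 6 windows available for Fads2, Fads3, Elovl1, Elovl5 and Elovl6. Of 32851 promoter windows of the same length, 37.4% hold CCAAT, 19.6% ACGTG, 32.4% GCGTG, 16.3% AGGTCA, 35.7% GGGCGG, 13.6% TATAAA and 0.551% TCACCCCAC. A match is a string of letters and shows no binding.

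Compared per kilobase of merged exon, which allows levels of different genes to be set side by side, the order of the 8 genes differed between genotypes. Vhl knockouts had Scd2 first at 48.1 ± 4.32 normalized reads per kilobase, then Elovl5 at 44.1 ± 1.78, whose ranges overlapped, then Elovl1 at 32.5 ± 2.96 and Scd1 at 21.4 ± 3.33 (SD, n = 3). Elovl6 followed at 1.44 ± 0.158, Fads1 at 0.498 ± 0.189, Fads3 at 0.360 ± 0.0315 and Fads2 at 0.108 ± 0.0558, with overlap between Fads1 and Fads3. In Vhl knockouts the Fads genes held the last 3 places.

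In floxed controls Elovl1 came first at 42.7 ± 2.81 normalized reads per kilobase, then Elovl5 at 40.0 ± 1.80, with overlapping ranges, then Scd2 at 27.3 ± 2.85 (SD, n = 3). Scd1 at 5.78 ± 0.403 and Fads1 at 5.45 ± 0.615 overlapped, and Elovl6 at 3.27 ± 0.525, Fads2 at 1.13 ± 0.332 and Fads3 at 0.986 ± 0.284 followed. Cre controls had the same first 6 places as floxed controls, with Scd1 at 7.16 ± 0.484 above Fads1 at 4.42 ± 1.35 and no overlap between that pair (SD, n = 3). Scd1 and Fads1 stood at neighbouring ranks in both controls, and Vhl knockouts had Elovl6 between them. With the length of the longest transcript in place of merged exons, 3 genes changed rank in Vhl knockouts and 2 in floxed controls. Scd2 (48.2) then stood behind Elovl5 (55.9) and Elovl1 (48.9) in Vhl knockouts. In floxed controls Fads1 (7.58) stood above Scd1 (5.86) without overlap, and in Cre controls that pair kept its order but overlapped.

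**Figure D3:**
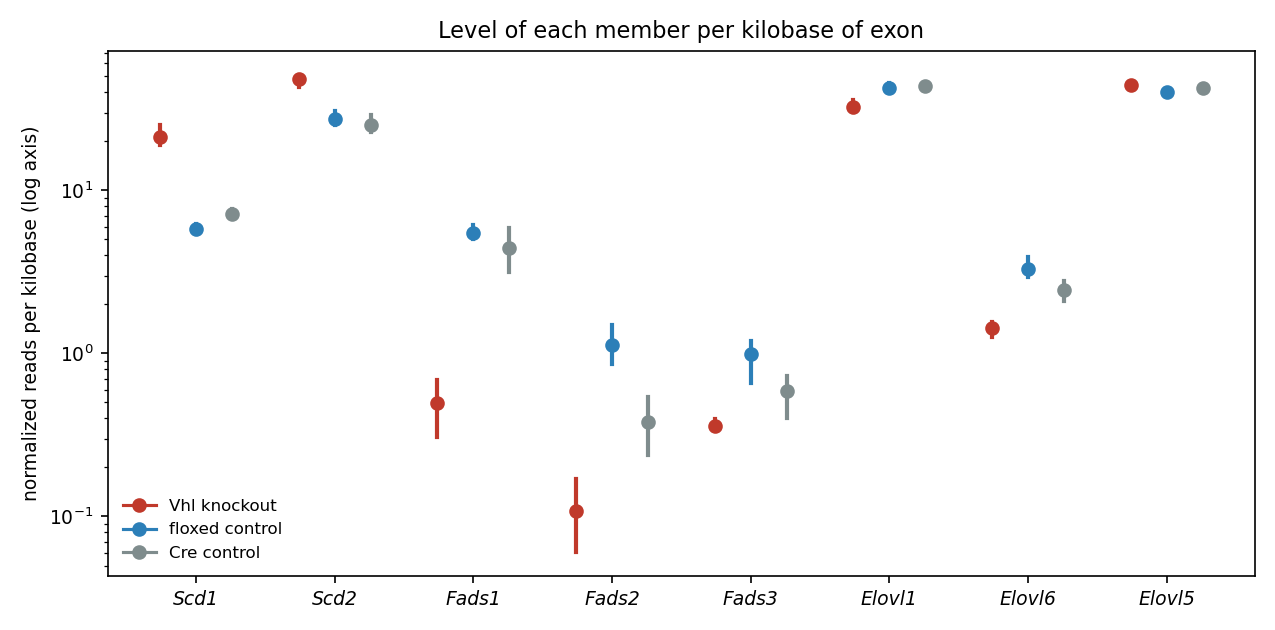
Normalized reads per kilobase of merged exon (y axis, log scale) of the 8 genes (x axis) in Vhl knockout (red), floxed control (blue) and Cre control (grey) macrophages. Points are means and bars run from the lowest to the highest library (n = 3); Scd1 stands at 21.4 in Vhl knockouts, 5.78 in floxed and 7.16 in Cre controls, and Fads1 at 0.498, 5.45 and 4.42.

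Cre control macrophages were then set against floxed control macrophages, to see what differs between genotypes that both keep VHL. None of the 8 genes was called, by limma, edgeR or DESeq2 (0 of 8 each), where limma called 0.167% of all genes, 0.0667% higher and 0.1% lower. Before adjustment, 4 of 8 had a limma p under 0.05, as did 8.01% of all genes. These were Fads2, with a log2 fold change of -1.07 and a limma adjusted p of 0.207, Elovl6 (-0.40, adjusted p = 0.573), Scd1 (0.30, adjusted p = 0.577) and Fads3 (-0.55, adjusted p = 0.593). Their 95% confidence intervals were -1.56 to -0.57, -0.70 to -0.09, 0.06 to 0.54 and -1.01 to -0.09, none of which includes 0 before adjustment. For these 4 genes the Cre control mean lay on the Vhl knockout side of the floxed control mean, and the comparisons share the floxed control libraries.

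Libraries within a genotype also differed. Among Vhl knockouts, library 3 had the highest Scd1, Scd2 and Elovl5 and the lowest Fads1, Fads2, Elovl1 and Elovl6. That library also had the most reads over the listed genes. Among Cre controls, library 1 had the lowest Scd2, Fads1 and Fads2 and the highest Scd1 and Elovl6. Among floxed controls, library 1 had the highest Scd2, Fads1, Fads2 and Elovl6 and the lowest Scd1. The spread of Fads1 was widest in Cre controls, and its lowest control value, 15.2 normalized reads, was still far above the highest in Vhl knockouts, 3.30.

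Markers of other cells moved with genotype. All 12 dendritic cell markers on the list were measured and all 12 were called lower in Vhl knockouts than in both controls, where 20.2% of all genes were called lower. Among them Xcr1, Clec9a and Cd209a lie under 0.962 normalized reads in every Vhl knockout library (highest values 0.729, 0.840 and 0.643), so they are in the table only through the controls. Their summed level was 57.8, 66.1 and 64.4 normalized reads in Vhl knockout libraries, against 272, 136 and 177 in floxed control and 162, 352 and 305 in Cre control libraries. None of the defining genes was at 0, and Ccr7 averaged 4.31 ± 0.875 normalized reads in Vhl knockouts and 40.7 ± 21.0 in the controls (SD, n = 3 and 6). Within each control genotype, Fads1 ranked as these sums did, and no other member did so in both. Elovl6 followed the sums in floxed controls only, and Scd2 and Fads2 in Cre controls only. In floxed controls the sums of 136, 177 and 272 stood beside Fads1 levels of 24.3, 24.8 and 29.6 normalized reads, and in Cre controls the sums of 162, 305 and 352 stood beside 15.2, 20.4 and 28.1. In Vhl knockouts the ranks differed, with Fads1 at 3.30 where the sum was lowest. Floxed control 2 had the lowest control sum and a Fads1 level within the range of the other controls. The part of these cells in the desaturase and elongase differences was not tested, and in bulk RNA fewer cells of a type and less RNA per cell cannot be told apart.

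Epithelial and neutrophil markers were examined likewise. Of 13 markers of alveolar type 2 epithelium, cells that make surfactant lipids, 8 were measured. Against both controls 1 was called higher and 3 lower in Vhl knockouts, where 19.7% of all genes were called higher and 20.2% lower. The summed level of the 8 was 236 to 242 normalized reads in Vhl knockouts, 271 to 587 in floxed and 258 to 326 in Cre controls. The highest sum, that of floxed control 2, includes 314 normalized reads of Lyz1, a lysozyme gene with a floxed control median of 9.13. Sftpb, Lamp3, Cldn18, Nkx2-1 and Slc34a2 are not in the table, and Sftpc averaged 0.560 ± 0.420 normalized reads in Vhl knockouts and 0.983 ± 1.10 in the controls (SD, n = 3 and 6). Etv5, a transcription factor and the 1 marker called higher, had 38.3 ± 5.74 normalized reads in Vhl knockouts and 3.30 ± 0.735 in the controls (SD, n = 3 and 6). Neutrophil markers, 7 of 8 measured, summed to 143 to 431 normalized reads in Vhl knockouts, 213 to 765 in floxed and 94.5 to 341 in Cre controls, highest in library 1 of each genotype. Without library 1 of each group, an alternative chosen after seeing the data, 7 of 8 members were called against both controls, 2 higher and 5 lower, where 4264 of all 12003 genes were called, 2069 higher and 2195 lower.

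Around the set, 4 lists of related genes were read against both controls, where 19.7% of all genes were called higher and 20.2% lower. The list of other family members and partner enzymes had 15 of 20 genes measured, of which 1 rose, 11 fell and 3 did not pass in Vhl knockouts against both controls, with a median log2 fold change of -0.44. Elovl2, Elovl3, Elovl4, Scd3 and Scd4 are not in the table. Fads6, one of the measured genes, is in the table only through the controls. Its Vhl knockout values, at most 0.257 normalized reads, all lie under 0.962. Hacd1, a dehydratase of the elongation cycle, rose, with 11.5 ± 1.97 normalized reads in Vhl knockouts and 3.31 ± 0.450 in the controls (log2 fold change 1.53, limma adjusted p = 1.20e-05). Cyb5r1, of the cytochrome b5 reductase family, fell to 23.1 ± 0.903 in Vhl knockouts, against 42.0 ± 3.67 in the controls (-0.83, adjusted p = 2.24e-05).

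Among the further partner enzymes, Cyb5b, the cytochrome b5 of the outer mitochondrial membrane, fell (log2 fold change -0.55, limma adjusted p = 0.000184), as did Degs1, the dihydroceramide desaturase (-0.38, adjusted p = 0.000224). Cyb5r3, the main cytochrome b5 reductase, had 414 ± 13.6 normalized reads in Vhl knockouts and 400.2 ± 36.6 in the controls (SD, n = 3 and 6), and did not pass (adjusted p = 0.541). Hsd17b12, the ketoacyl reductase of elongation, had 117 ± 6.88 in Vhl knockouts and 117 ± 7.57 in the controls, and did not pass either (adjusted p = 0.936).

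The list of SREBP factors and fatty acid synthesis genes had 18 of 20 genes measured, with 5 higher, 9 lower and 4 not passing, beside 19.7% higher and 20.2% lower over all genes, and a median of -0.32. Acly, which makes cytosolic acetyl-CoA from citrate, rose to 1401 ± 72.8 normalized reads in Vhl knockouts, against 414 ± 13.1 in the controls (log2 fold change 1.76, limma adjusted p = 1.22e-08). Slc25a1, the mitochondrial citrate carrier, rose (0.49, adjusted p = 2.04e-05), and so did Srebf1, which encodes the factor SREBP1 (0.47, adjusted p = 0.000530). Fasn, the synthase that makes palmitate, fell to 70.7 ± 6.14 in Vhl knockouts, against 134 ± 17.5 in the controls (-0.90, adjusted p = 7.46e-05). In the order of the route, Acly was higher, Fasn and Elovl6 were lower, and Scd1 and Scd2 were higher in Vhl knockouts. Mbtps2, a protease that releases SREBPs (-0.03, adjusted p = 0.736), did not pass.

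The list of LXR and PPAR regulators holds nuclear receptors with known targets that include Scd1, and their cofactors. It also holds Mlx, Mlxip, Mlxipl and Pex2, which are neither. In this list 12 of 15 genes were measured. Of these 5 were higher, 1 lower and 6 not passing, beside 19.7% higher and 20.2% lower over all genes, and the median was 0.07. Nr1h3, which encodes LXR alpha, rose to 102 ± 7.18 normalized reads in Vhl knockouts, against 54.6 ± 5.30 in the controls (log2 fold change 0.89, limma adjusted p = 3.00e-05). Nr1h2, which encodes LXR beta, rose by 0.38 (adjusted p = 0.000349), Pparg by 0.49 (adjusted p = 0.000510) and Ppard by 0.28 (adjusted p = 0.00170). Rxra, their shared partner receptor (0.12, adjusted p = 0.172), did not pass.

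The list of acyl-CoA synthetases and acyltransferases, which activate fatty acids and attach them to glycerolipids, had 20 of 23 genes measured. Of these 8 were higher, 5 lower and 7 not passing, beside 19.7% higher and 20.2% lower over all genes, and the median was 0.15. Acsl3, an acyl-CoA synthetase of lipid droplets and endoplasmic reticulum, rose to 29.4 ± 3.91 normalized reads in Vhl knockouts, against 7.02 ± 1.68 in the controls (log2 fold change 1.94, limma adjusted p = 4.14e-06). Slc27a1, a fatty acid transport protein with synthetase activity, rose to 104 ± 4.90, against 30.6 ± 2.70 in the controls (1.74, adjusted p = 1.22e-07). Agpat5, a lysophosphatidic acid acyltransferase, rose (0.59, adjusted p = 6.61e-05). Lpcat1, which makes saturated phosphatidylcholine in surfactant synthesis, fell to 3.86 ± 0.844 in Vhl knockouts, against 13.6 ± 3.61 in the controls (-1.57, adjusted p = 0.000204).

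Soat1, which esterifies cholesterol (log2 fold change 0.15, limma adjusted p = 0.122), and Lpcat3, which places polyunsaturated chains into phospholipids (0.14, adjusted p = 0.115), did not pass. The medians of these 4 lists stand beside a median of -0.00 over all genes.

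**Figure D4:**
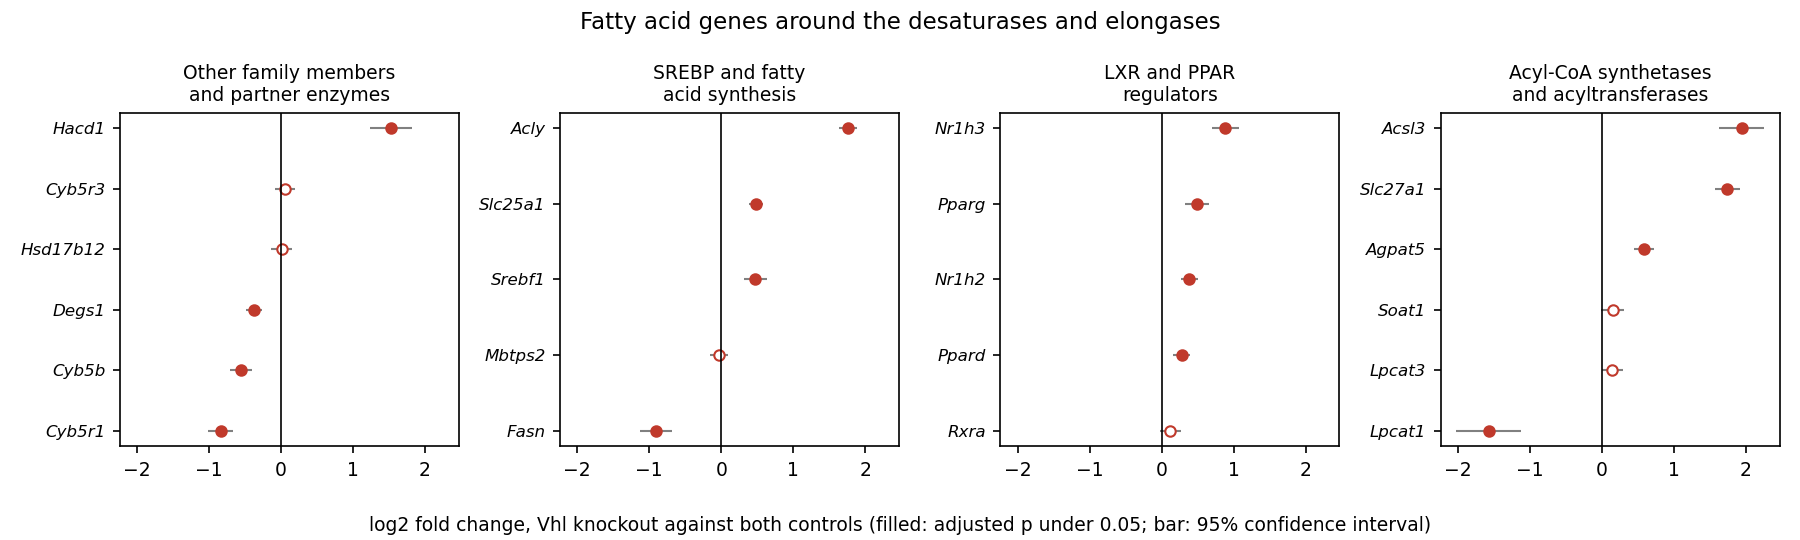
Log2 fold change in Vhl knockout against both controls (x axis, bars are 95% confidence intervals, filled where the limma adjusted p is under 0.05) for the named genes of 4 lists (y axis, sorted by size). Acly (1.76), Acsl3 (1.94), Slc27a1 (1.74) and Hacd1 (1.53) stand apart on the right, and Lpcat1 (-1.57) on the left.

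For each of the 8 genes, the 3 other genes with the most similar profile over the 9 libraries were sought among 9829 genes, by root-mean-square distance of log2 profiles centred on their means. The likeness is a description, since libraries share genotype. Nearest to Scd1 were Fam89a (0.10), Nid2 (0.13) and Ero1l (0.13), where Scd1 itself varied by 0.81 about its mean. Nearest to Scd2 were Phf21a (0.09), Tmem71 (0.09) and Gfod1 (0.10), where Scd2 varied by 0.43. Fads1, which varied by 1.39, was nearest to Spsb1 (0.30), Siglece (0.30) and Cyfip2 (0.31). Fads2, which varied by 0.77, was nearest to Lbr (0.22), Aldh1l1 (0.26) and Nbeal2 (0.30). A distance grows with the variation of the member itself, so distances do not rank how alike the profiles of different members are.

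The remaining genes had nearest profiles of their own. Fads3, which varied by 0.46, was nearest to C1qa (0.21), Ttll3 (0.21) and Slc20a1 (0.22). Elovl6, which varied by 0.48, was nearest to Lilra6 (0.14), Rab3il1 (0.15) and Cdca7 (0.16). Elovl1, which varied by 0.21, was nearest to Sephs1 (0.04), Opa3 (0.05) and Fam89b (0.05). Elovl5, which varied by only 0.07, was nearest to Unc50, Arf2 and Selenot (0.03 each). Within the set the closest pair was Fads3 and Elovl6 (0.22), Scd1 and Scd2 stood 0.45 apart, and Scd1 and Fads1 were the most distant pair (2.20).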

How the data were processed

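Poly(A) RNA was read from 9 pools of alveolar macrophages, grouped by the genotype label. The submitters' processing notes name RSEM 1.2.3, cutadapt 1.3, CASAVA 1.8.2 and the build GRCm38. They give neither the annotation nor the strand setting. What the authors deposited is 1 table of normalized expression signal for 12003 genes. All values (100%) came out as whole reads times 1 factor per library within 0.01 read, and the table had been filtered before deposit, since each gene reaches at least 0.962 in at least 3 libraries. No per-sample column was unmapped (0). Symbols came from GENCODE M21 for 11935 genes.

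The deposited signal was analysed as log2(value + 1) with limma 3.58.1 in R 4.3.3, with an intensity trend, 1 mean per genotype and Benjamini-Hochberg adjustment over all genes. The same code was tested on simulated data. edgeR 4.0.16 and DESeq2 1.42.0 were run on the recovered reads as alternatives. Other alternatives changed the pseudocount, the filter, the scaling, the trend, the libraries in the fit and a replicate block. Depth sets the precision of low genes: the limit that a count of 0 sets, 3 reads, equals 0.120 to 0.170 normalized reads and covers counting error only. A shift shared by all genes is removed by such scaling. RSEM divides reads that fit several genes.

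The members, the gene lists and the markers were chosen with earlier results of these data known. Named beside the members and Vhl are, from each pathway list, up to 4 genes with the smallest adjusted p against both controls and a mean of at least 5, up to 2 of highest mean that did not pass, and the 3 nearest profiles of each member. Of the genes this rule names, 2 are not reported here. Cdc20 and the markers named singly were chosen after their values were seen.

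Summed marker levels were also computed for monocytes, at 121 to 171 normalized reads in Vhl knockouts, 134 to 218 in floxed and 125 to 139 in Cre controls. Of these 9 markers 3 were called higher against both controls, 2 lower and 4 did not pass. Over all genes 19.7% were called higher and 20.2% lower. F13a1 was higher, at 53.2 in Vhl knockouts and 0.596 in the controls, and Treml4 was lower, at 18.0 in Vhl knockouts and 73.4 in the controls. F13a1 reaches 0.962 in enough libraries for the table only through the Vhl knockouts, with a floxed control median of 0.563 and a highest Cre control value of 0.648. Ms4a4c, at most 0.720 in Vhl knockouts, is in the table only through the controls. For B cells 1 of 5 markers was measured (Igkc), at 9.44 to 18.6 in Vhl knockouts, 4.25 to 64.3 in floxed and 0.0523 to 0.396 in Cre controls. For T and NK cells 2 of 7 were measured, Cd2 and Klrb1c, at 159 to 177 in Vhl knockouts, 177 to 197 in floxed and 201 to 247 in Cre controls. Nearly all of this sum was Cd2, with means of 169, 184 and 223. Klrb1c differed in order, with means of 1.53 in Vhl knockouts, 3.54 in floxed and 0.118 in Cre controls. Against both controls 1 of the 2 was called lower and 1 did not pass. In Cre against floxed controls 1 was called lower and 1 did not pass.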

Additional observations from a re-analysis of the deposited data

How the results depend on the processing

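The member counts held under every alternative run against both controls (7 of 8) and against floxed controls (7 of 8), and none was called between Cre and floxed controls in any. Against Cre controls the count was 5 to 6 over the fits that leave out 1 library, and 5 with a pseudocount of 5, the lost call being Fads2 each time. Signs turned for differences near 0 between Cre and floxed controls: Scd2 (-0.11) was 0.0381 without library 1 of each group, and Elovl1 (0.03) ran from -0.0186 without floxed control 3 to 0.0747 without floxed control 2, with -0.000460 without Cre control 3. The cause was not tested. Order per kilobase moved for 3 genes in Vhl knockouts and 2 in floxed controls with the longest transcript length, and for 2 in floxed controls without floxed control 2. Over all genes, calls between Cre and floxed controls numbered 20 by limma, 74 by DESeq2, 71 with the replicate block and 147 without library 1 of each group. Other scalings moved the all-gene median by at most 0.03. Deviations of libraries with the same number correlated at -0.08 to 0.58 over 9829 genes (median 0.17, against -0.14 for different numbers, and 0.20 to 0.58 among the libraries numbered 1), and the best match had the same number in 8 of 18. Not every pair passed 0.1, so the numbers were not taken to pair the pools. With the replicate block, the member counts were 7, 7, 6 and 0 for the 4 comparisons. Depth limits Fads2, with 5 to 13 reads per Vhl knockout library.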
